A study of Mus musculus with 4 samples.

Results

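The 10 genes described here hold back SMAD signalling: Bambi, Smad6, Smad7, Smurf1, Smurf2, Ski, Skil, Tgif1, Tgif2 and Pmepa1. Every called peak that the authors' annotation names after one of them was taken, and the peaks that overlap between libraries were merged, which gave 75 of the 255101 regions of the whole series. The data are ATAC-seq, in which a transposase cuts open DNA, from LβT2 cells, an established mouse line of gonadotrope type. The labels give the cell line as LbT2 and write LbT2b in the sample titles, without saying what the b stands for. LβT2 comes from a pituitary tumour of mice that carried a viral T antigen under the Lhb promoter, so all libraries describe a single transformed line. After a night without serum, cells were given vehicle or 1 nM activin A for 6 h, and there were 2 libraries for each. The labels do not say whether the libraries came from separate cultures, so the p-values below measure only the spread between these libraries. The study's title places the work in the transcription of Fshb, which encodes the β subunit of follicle-stimulating hormone and which activin induces in gonadotropes.

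Activin binds a pair of receptor kinases on the cell surface. The receptors phosphorylate SMAD2 and SMAD3, which join SMAD4, enter the nucleus and bind short DNA motifs beside other factors. The pathway is restrained at each step. BAMBI is a receptor without a kinase that blocks receptor signalling, SMAD6 and SMAD7 are inhibitory SMADs that occupy receptors or SMAD4, and SMURF1 and SMURF2 are ubiquitin ligases that send receptors and SMADs to degradation. SKI and SKIL (also called SnoN) are nuclear corepressors of SMAD complexes, TGIF1 and TGIF2 are homeodomain corepressors, and PMEPA1 is a membrane protein that binds SMAD2 and SMAD3. Several of these genes are themselves induced by TGFβ family ligands in many cell types, which closes the loop.

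SMAD3 and SMAD4 are known to bind the palindrome GTCTAGAC, the related CAGAC, and GC-rich letters such as GGCGCC. All 3 were searched on both strands in RefSeq promoter windows of 300 bases (250 before and 50 after a transcript start, GRCm38.p6), of which 10 windows matched 6 members: Tgif2, Ski, Smurf1, Smad6, Smurf2 and Tgif1. GTCTAGAC stood in 1 of the 10 windows, CAGAC (or GTCTG on the other strand) in 5 and GGCGCC in 2, against 0.213%, 49.6% and 11.9% of all 32851 windows. GTCTAGAC and GGCGCC read the same on both strands, and no letters of one motif overlap another in the stretches shown. Of the 10 windows, 5 overlapped a called peak in all 4 libraries and 4 overlapped none. The windows are not independent members, because Tgif1 has several, at alternative starts. Apart from the Ski window, all those without a peak are of Tgif1, as are most of those with CAGAC. The stretches below are shown because each lay wholly inside a called peak in all 4 libraries and holds one of the motifs, which are in capitals. The Smad6 stretch is on the minus strand of chr9:64022045-64022074, and its palindrome covers the start of a RefSeq transcript at 64022059. The Smurf1 stretch (minus strand, chr5:144965900-144966080) and the Smurf2 stretch (minus strand, chr11:106920748-106920965) end at the base before the gene's RefSeq 5′ end. A match says only that the letters are present.
Smad6: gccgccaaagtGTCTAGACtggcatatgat
Smurf1: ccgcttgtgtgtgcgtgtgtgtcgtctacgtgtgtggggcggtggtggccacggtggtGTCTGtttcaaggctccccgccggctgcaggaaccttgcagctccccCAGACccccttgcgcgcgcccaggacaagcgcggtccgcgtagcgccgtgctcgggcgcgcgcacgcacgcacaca
Smurf2: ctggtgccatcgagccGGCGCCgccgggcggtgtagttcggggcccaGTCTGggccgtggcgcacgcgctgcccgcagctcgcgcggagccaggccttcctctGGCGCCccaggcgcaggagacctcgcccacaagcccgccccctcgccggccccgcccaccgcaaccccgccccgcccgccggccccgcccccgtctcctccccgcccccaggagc

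Between 172146474 and 224226184 high-quality autosomal reads stood behind a library, with 70692 to 178358 called peaks, the most of them in vehicle library 2. Peaks were called in each library alone, and their strength is given as the authors' −log10 of the q-value, so that a higher number is a surer peak; a peak at 5 or above is called strong here, and one under 2 weak. Strong peaks numbered 12377 and 12760 with vehicle and 19819 and 15807 with activin, and the enrichment of reads at start sites was 2.72 and 2.48 against 3.12 and 3.04. Both thus differed between the groups over the whole genome, and treatment and library quality cannot be told apart here. The part of these differences in the members' values was not tested. Of 8 gonadotrope markers, 5 had a peak within 1 kb of the start in all 4 libraries (Lhb, Cga, Gnrhr, Nr5a1 and Gata2), Pitx1 and Foxl2 had one in some, and Fshb in none. Of 6 markers of other pituitary lineages none had one in all 4. Gh had one in vehicle library 2 and activin library 1, Pomc in both vehicle libraries and Tbx19 in vehicle library 2. Prl, Tshb and Pou1f1 had none at all.

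Fewer peaks were named after the 10 genes with activin, and the difference lay among the weak ones. Vehicle libraries 1 and 2 held 34 and 58 member peaks, and activin libraries 1 and 2 held 23 and 19. Their full lists held 83344, 178358, 85112 and 70692 peaks, of which the member peaks were 0.0408%, 0.0325%, 0.0270% and 0.0269%. By number and by share, both vehicle libraries were above both activin libraries, but by number the vehicle libraries also differed from each other by more peaks than either activin library held. The means were 46 ± 17.0 and 21 ± 2.83 (SD, n = 2 each), a difference of −25 with p = 0.333 in an exact 2-sided permutation test, the smallest value that 2 libraries against 2 can give. With lists of equal length the difference was −7.5, and without vehicle library 2 it was −13. Counting only peaks of at least 2 gave 14, 15, 15 and 14 (difference 0), and strong peaks alone gave 8, 7, 10 and 8 (difference 1.5). Weak peaks made up 58.8% and 74.1% of the member peaks with vehicle and 34.8% and 26.3% with activin, beside 65.6%, 76.8%, 53.6% and 54.4% of the full lists.

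**Figure D1:**
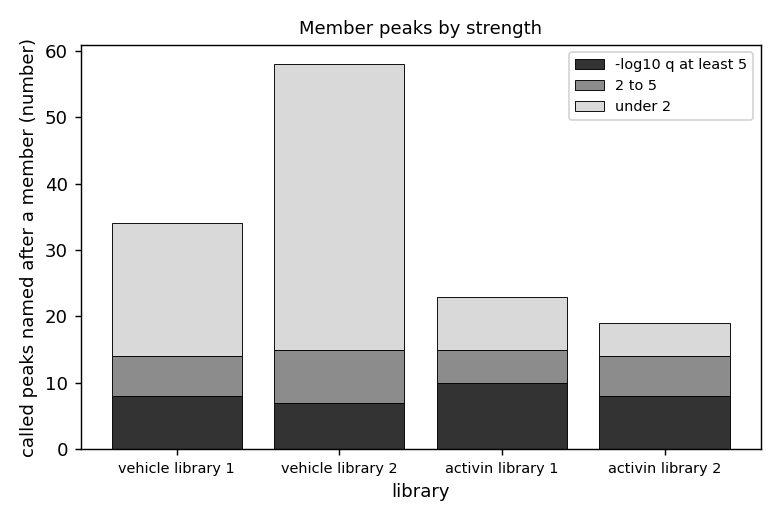
Number of called peaks named after the 10 genes in each library (vertical axis), stacked by −log10 q. The totals run from 58 in vehicle library 2 to 19 in activin library 2, while the part at 2 or above stays at 14 or 15 in every library.

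The regions fell mostly in introns (33 of 75) or between genes (30), and 9 were annotated as promoter, which is 12.0% of the members' regions beside 6.27% of all regions. A peak in only 1 library made 46 of the 75 (61.3%, beside 67.4% of all regions), and 30 of those 46 came from vehicle library 2, as did 102994 of 171817 such regions over the whole series. Weak in every library were 55 (73.3%, beside 75.1%), and 12 regions (16.0%, beside 11.7%) were called in all 4 libraries. Strong in at least 1 library were 11 regions (14.7%, beside 8.32%). Smad6 held the most regions, 25, reaching 150.6 kb from its start, followed by Smurf1 with 12 and Smad7 with 11. Skil had 7 regions, Smurf2 had 7 and Ski had 6. Tgif1 had 3, Pmepa1 2, and Bambi and Tgif2 1 each.

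The gene name in the annotation is that of the nearest start site, and this hid several of the members' own promoters. The start used for Smurf1 lies 67.9 kb from its RefSeq 5′ end, that of Ski 34.2 kb, that of Tgif2 11.02 kb and that of Tgif1 3.72 kb. Those of Smad7 and Bambi lie 1.625 and 0.946 kb away, while those of Smad6 and Skil lie within 0.053 kb. A further 27 regions had a promoter, exon, intron or gene end of a member as their annotated feature but carried a neighbour's name: 10 for Smurf2, 7 for Smurf1, 5 for Pmepa1, 2 each for Ski and Tgif2 and 1 for Smad7. These were added after seeing the data, are always given with the neighbour's name, and are counted apart. They hold the RefSeq start of Smad7, Smurf1, Tgif2 and Pmepa1.

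To compare regions between treatments, the high-quality reads in each library's own peak were divided by its length in kb and by the library's high-quality reads in units of 1000000, which is called density here. For the test, log2 densities were centred on the library's median region and fitted with limma over 13871 autosomal regions with exactly 1 peak in each library and intervals that largely coincide; 7 were member regions and 3 more were members' by feature. Of all 13871, 0.0% passed an adjusted p under 0.05 in either direction, and 0 of the 7 and 0 of the 3 did. At an unadjusted p under 0.05, 3.62% of all regions (502) were higher with activin and 5.91% (820) lower, and among the members 1 of 7 was higher (Bambi), 0 lower, and 0 of 3. The median log2 difference of the 7 was 0.05, between −1.38 and 0.34, beside −0.00 for all regions. Scaling to the total of high-quality reads instead moved the median of all regions to 0.27 and that of the 7 members to 0.33, so directions below are relative to the median region unless said otherwise.

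Bambi, the pseudoreceptor, had a single region, annotated promoter-TSS (18:3507280-3508382, GRCm38), and it had the smallest p of the 7 tested member regions. The centre of the region lay 0.8 kb inside the gene from its RefSeq 5′ end, which the region did not cover. Its −log10 q was 22.6 and 18.6 after vehicle against 31.4 and 28.4 after activin. Both activin libraries were above both vehicle libraries, as they were in 56.8% of the 29896 regions called everywhere. The density was 2.72 and 2.82 after vehicle against 3.85 and 4.70 after activin, or 2.77 ± 0.072 against 4.28 ± 0.600 (SD, n = 2 each). This was again without overlap, and 62.2% of all 13871 regions had a higher density in both activin libraries. The reads themselves numbered 487, 486, 770 and 513, in peaks of 1039, 778, 891 and 613 bp, so the interval was also shortest in activin library 2. The log2 difference was 0.34 (SE 0.14), with unadjusted p = 0.0363 and adjusted p = 0.503 in limma, which does not pass the threshold. It was 0.62 with an adjusted p of 0.0246 in limma when scaled to all reads. That scaling called 605 of all 13871 regions, 553 higher and 52 lower with activin. The adjusted p was the lowest of alternatives that ran up to 0.860, and the log2 difference was −0.09 when reads were not divided by length. Without activin library 2 it was 0.16, and without activin library 1 it was 0.53. Among the 8004 promoter regions of all genes in the same fit, the patterns nearest to it over the 4 libraries were those of Rnf216, Nupr1l and Zpbp2, at Euclidean distances of 0.0641, 0.152 and 0.160 on the centred log2 scale.

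Smad6, an inhibitory SMAD best known for restraining BMP receptors, had strong peaks at its start and in its first intron. The promoter region (9:64021920-64023282), which holds the palindrome shown above, had −log10 q values of 11.8, 6.46, 12.5 and 10.9 in vehicle 1, vehicle 2, activin 1 and activin 2. These overlapped between the treatments, because vehicle library 1 stood above activin library 2. The densities were 5.61 and 5.22 against 6.98 and 6.59, and the centred log2 difference was 0.05 (SE 0.09, adjusted p = 0.882 in limma). Density per 1000000 reads was thus higher in both activin libraries, as it was for 62.2% of all 13871 regions, and next to the median region little of that was left. The intron region, 3.4 kb inside the gene (9:64017803-64019365, intron 1 of 3), had −log10 q of 6.63 and 4.59 (vehicle) against 10.8 and 8.83 (activin). Both activin values were above both vehicle values, as in 56.8% of the 29896 regions called everywhere. The intron region's densities were 4.35, 3.94, 5.57 and 5.07, and its log2 difference was 0.09 (SE 0.09, adjusted p = 0.783 in limma).

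Beyond the gene, Smad6 names ran far into the neighbouring interval on chromosome 9. Of its 25 regions, 24 were distal, which includes those in its introns and at its gene end, and 10 of the 25 were called in vehicle library 2 alone. One, 103.6 kb downstream of the start and between genes (9:63918346-63918837), was called in all 4 libraries with −log10 q of 2.63, 1.77, 4.53 and 2.62. Its density was 2.80 and 2.43 (vehicle) against 5.15 and 5.75 (activin), which do not overlap, but the peaks were 459 bp long after vehicle in both cases and 135 and 132 bp after activin. Only 20.7% of the union was common to all, so the region is outside the main fit. In the fit over all 28977 autosomal regions called in every library, where 0.0% of regions passed the adjusted threshold and 9.4% had an unadjusted p under 0.05, its log2 difference was 0.90 with unadjusted p = 0.000162, the smallest of the 12 member regions there, and adjusted p = 0.30 in limma. The raw reads, 221, 247, 156 and 135, were lower with activin. It is named here after its values were seen.

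Smad7, the inhibitory SMAD that TGFβ and activin are known to induce, carried its strongest peak named after it 50.5 kb downstream. That region (18:75419136-75419993, intergenic) had −log10 q of 12.9 and 14.0 (vehicle) against 21.5 and 24.6 (activin). Both activin libraries were above both vehicle libraries, as they were in 56.8% of the 29896 regions called everywhere. The densities did not separate: they were 4.62 and 3.94 (vehicle) against 4.25 and 5.0 (activin), with a log2 difference of −0.17 (SE 0.12, adjusted p = 0.666 in limma). The peaks were longer with activin (857 and 650 bp, against 495 and 576), the reads numbered 394, 502, 816 and 578, and without division by length the log2 difference was 0.17. Without activin library 1 the difference per kb was −0.0099, and without activin library 2 it was −0.32.

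At the 5′ end of Smad7 there were 2 neighbouring regions. The one that covers the RefSeq start (18:75366392-75367986, annotated to the promoter of Smad7 and named Gm20544) had −log10 q of 12.9, 15.2, 28.8 and 18.4. Both activin values were higher, as they were in 56.8% of the 29896 regions called everywhere. The region's densities of 5.66, 5.35, 7.06 and 5.79 gave a log2 difference of −0.06 (SE 0.10, adjusted p = 0.888 in limma), which was 0.05 without activin library 2. The other, named Smad7 and 0.8 kb past the annotated start (18:75368822-75370693), was weaker, at 5.29, 4.19, 5.61 and 3.56. There the lowest value was in activin library 2 and the highest in activin library 1, so the treatments overlapped, and the density, 4.42, 3.08, 3.75 and 3.13, did as well. Vehicle library 1 had 2 peaks in this region, which kept it out of the main fit.

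**Figure D2:**
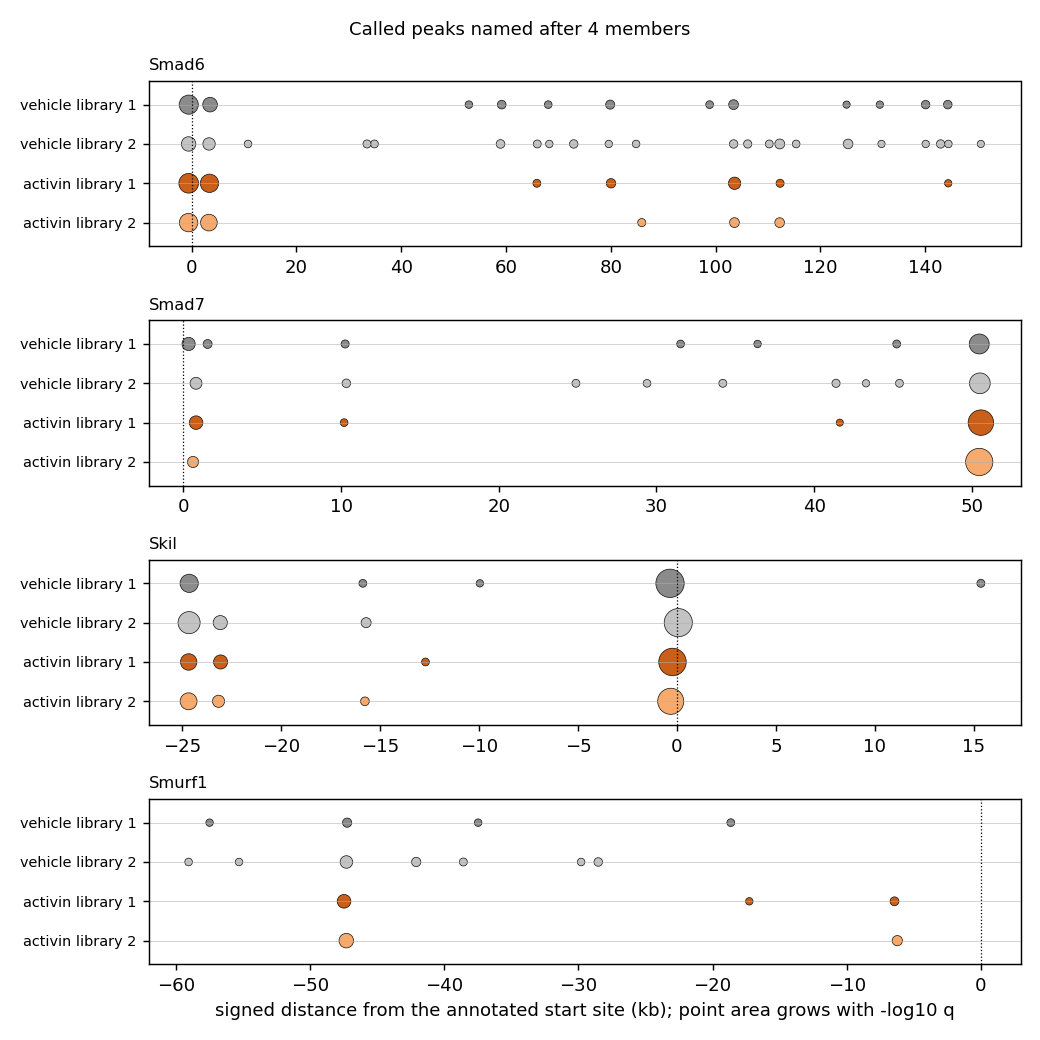
Called peaks named after Smad6, Smad7, Skil and Smurf1 in each library, by signed distance of the peak centre from the annotated start site in kb (horizontal axis, dotted line at the start), with point area growing with −log10 q. The large points recur in every library at the starts of Smad6 and Skil and at 50.5 kb past Smad7, and most small points are in the vehicle libraries; for Smurf1 the start used lies 67.9 kb from the RefSeq 5′ end.

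Skil encodes SnoN, a corepressor that is degraded and then made again after TGFβ stimulation, and among the regions called in all 4 libraries only its own had a lower −log10 q in both activin libraries. Of the 12 member regions called everywhere, 6 were above in both activin libraries and 2, both of Skil, below, beside 56.8% and 5.44% of all such regions. The promoter region (3:31093754-31095918) had 26.7 and 26.4 (vehicle) against 25.1 and 22.5 (activin). Its densities were 4.56, 4.63, 5.27 and 5.04, so per 1000000 reads it was higher in both activin libraries, and centred on the median region it was lower in both, with a log2 difference of −0.11 (SE 0.10, adjusted p = 0.750 in limma). Scaled to all reads, the difference was 0.17, and it was −0.0088 without vehicle library 2.

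Upstream of Skil, 2 intergenic regions stood close together. The region at 24.6 kb before the start (3:31070133-31070718) had strong peaks in all 4 libraries, at 10.7, 16.0, 8.57 and 9.10, but the quality report counted only 4, 27, 9 and 2 high-quality reads in them. The densities were 0.050, 0.208, 0.078 and 0.023, and the log2 difference of −1.38 had an SE of 0.77 (adjusted p = 0.596 in limma). It was −2.36 without vehicle library 1, −0.40 without vehicle library 2, −0.74 without activin library 2 and −0.85 with a pseudocount of 10 reads in place of 1. Of 10084 autosomal regions strong in all 4 libraries, 185 (1.83%) had no more than 27 reads in every library, and the median region had 814 reads in its richest library. What kinds of reads the peak caller used there was not tested. The next region, at 23.1 kb before the start (3:31071587-31072447), had no peak in vehicle library 1 and −log10 q of 6.17, 6.11 and 4.37 in vehicle 2, activin 1 and activin 2, with densities of 3.63, 1.55 and 1.55. Its peak in vehicle library 2 was 137 bp long, against 861 and 519 bp with activin.

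Ski, the founding member of the same corepressor family, had the strongest region annotated as promoter of all those listed, under another name. The region 0.8 kb upstream of its RefSeq 5′ end (4:155222991-155223713, annotated to the promoter of Ski and named 2610002J02Rik) had −log10 q of 46.2, 33.2, 55.6 and 48.6. Both activin libraries were above both vehicle libraries, as in 56.8% of the 29896 regions called everywhere. The region's densities were 9.66, 8.25, 10.5 and 10.2, the highest of the members' regions called in all 4 libraries. It did not cover the RefSeq 5′ end of Ski, and the Ski promoter window searched above overlapped no called peak in any library. The log2 difference was −0.06 (SE 0.10, adjusted p = 0.860 in limma), which became 0.21 when scaled to all reads. A second region by feature, in exon 1 (4:155221792-155222462, also named 2610002J02Rik), was near or under the weak limit at 1.18, 2.18, 2.15 and 1.75. Named after Ski itself, 1 region of 6 was called everywhere, 37.4 kb past the start used (4:155150031-155151188), at 2.14, 1.28, 4.65 and 1.80, and there activin library 1 stood alone above the other libraries. The small peak on the start used for Ski was called in vehicle library 2 only.

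**Figure D3:**
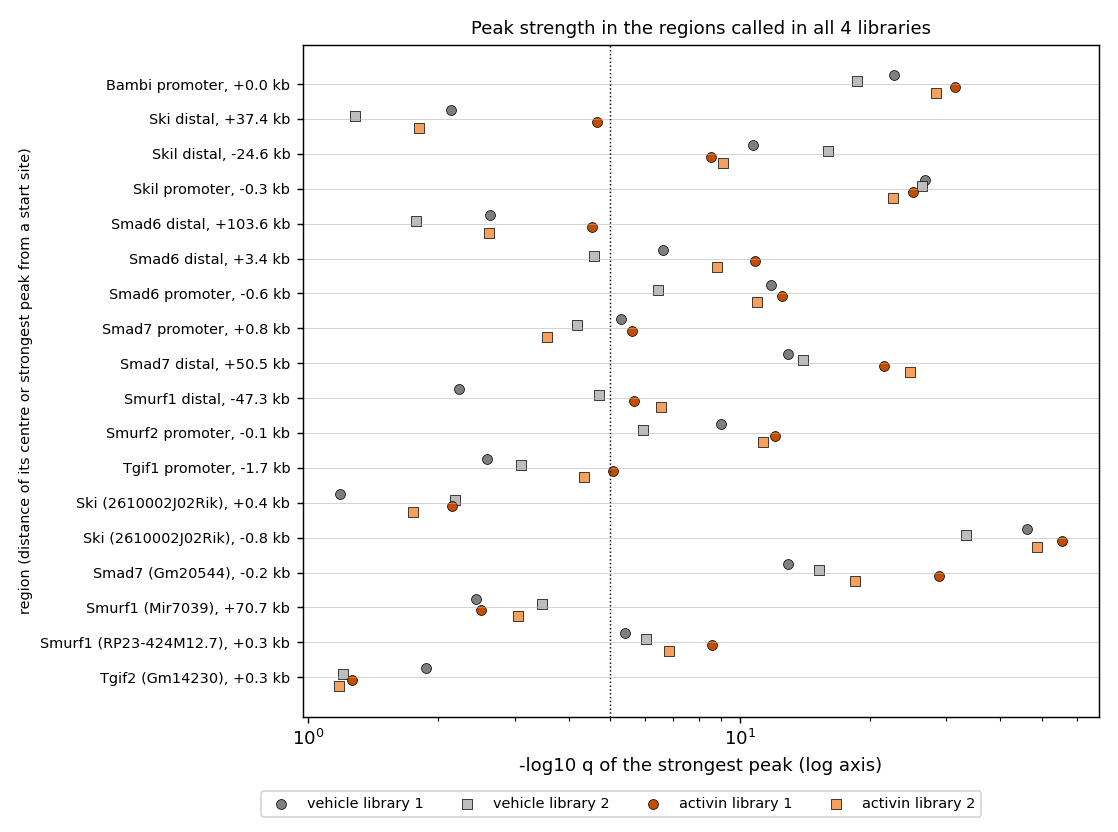
The authors' −log10 q (horizontal, log axis) of the strongest peak of each library in the 18 member regions called in all 4 libraries, with a dotted line at 5; names in brackets are those of the neighbouring gene in the annotation. The Ski promoter region is the furthest right at 33.2 to 55.6, and the 2 Skil regions are the ones with both activin points left of both vehicle points.

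Smurf1 and Smurf2, the ubiquitin ligases, differed in where their named peaks lay. All 12 regions named Smurf1 were distal, and all were in its first intron of 18. The one called in every library lay 47.3 kb before the start used, or 20.5 kb inside the gene from its RefSeq 5′ end (5:144944792-144946077). Its −log10 q was 2.23 and 4.71 (vehicle) against 5.68 and 6.55 (activin), which made it the only member region, 1 of 75, strong in both activin and in no vehicle library, beside 0.994% of all regions. Among regions called everywhere it was 1 of 12, beside 7.9%. The reverse pattern was found in 0 of 75, beside 0.0318%, and in 0 of 12, beside 0.241%. The densities, 1.84, 1.86, 1.81 and 2.36, overlapped between treatments (log2 difference −0.01, unadjusted p = 0.960 in the limma fit over all 28977 regions). With a limit of 3 in place of 5 no member region was strong with activin only, since vehicle library 2 then passed as well.

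At the first exon of Smurf1, the region that covers the RefSeq start and the sequence shown above (5:144964835-144966311, exon 1 of 18, named RP23-424M12.7) had −log10 q of 5.41 and 6.04 (vehicle) against 8.59 and 6.83 (activin). Its densities of 3.43, 3.06, 3.57 and 3.43 lay within a narrow range, and the log2 difference was −0.16 (SE 0.10, adjusted p = 0.622 in limma). A further intron region, 6.2 kb before the start used (5:144904093-144904748), was the only member region called in both activin libraries and in no vehicle library, at 2.02 and 2.91, which is 1.33% of the members' regions beside 1.35% of all. The Smurf2 promoter (11:106919647-106921193), which holds the Smurf2 stretch above, had −log10 q of 9.0 and 5.94 (vehicle) against 12.0 and 11.3 (activin). Its densities were 2.30 and 1.92 against 2.83 and 2.60, with a log2 difference of 0.09 (SE 0.12, adjusted p = 0.826 in limma). By both measures both activin libraries were above both vehicle libraries. So they were by −log10 q in 56.8% of the 29896 regions called everywhere, and by density in 62.2% of all 13871. The other 6 Smurf2 regions lay in intron 2 of 19, and none passed 2 in any library.

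Tgif1 and Tgif2, the homeodomain corepressors, had weaker start regions. At Tgif1 (17:70850659-70853251) the values were 2.59 and 3.10 (vehicle) against 5.07 and 4.34 (activin). Both activin libraries were thus above both vehicle libraries, as in 56.8% of the 29896 regions called everywhere. The peak of activin library 1 there carries the name Gm28727, an example of how the nearest start can change between libraries. In the other libraries the region also holds a peak not named Tgif1, which is counted in the densities. That further peak gives the 4.34 of activin library 2, where the peak named Tgif1 had 4.33. The densities of 2.08, 1.99, 1.99 and 2.42 overlapped, with a log2 difference of −0.06 in the limma fit over all 28977 regions (unadjusted p = 0.731). The RefSeq start of Tgif2 lay in a region named Gm14230 (2:156839440-156840759) that was weak in all 4 libraries, at 1.87, 1.20, 1.26 and 1.18. Its densities were 2.59, 2.04, 2.14 and 3.0, with the highest and the next highest in different treatments. The 1 region named Tgif2, on a second annotated start, was called in vehicle library 1 only, at 1.40.

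Pmepa1 had no region called in all 4 libraries. The 2 regions named after it were in its first intron, one at 11.3 kb called in activin library 1 only (2.51) and one at 7.6 kb called in vehicle library 2 only (1.19). Its RefSeq start lay in a region named Pmepa1os (2:173276512-173277213) with weak peaks in vehicle library 2 (1.76) and activin library 1 (1.46) and none in the other libraries. Libraries of either treatment thus had or lacked a peak at this start.

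**Figure D4:**
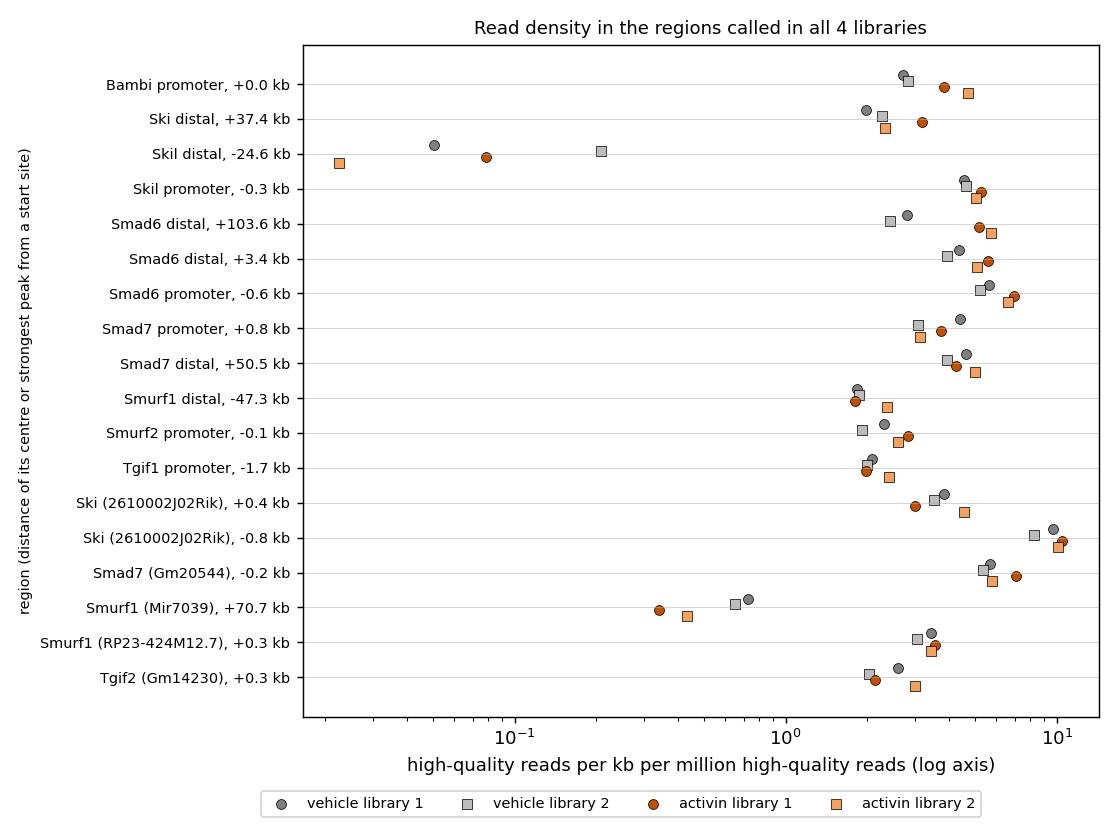
Density of high-quality reads (per kb of peak and per 1000000 of the library's total, horizontal log axis) in the 18 member regions called in all 4 libraries. The Ski promoter region is the furthest right at 8.25 to 10.5, and the Skil region at 24.6 kb before the start is the furthest left at 0.023 to 0.208.

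Taking the 7 tested regions as a set, both activin libraries had a higher centred density than either vehicle library in 4 (Smurf2, Bambi and Smad6 promoters and the Smad6 intron region), beside 20.9% of all 13871 regions, and lower in both in 1 (the Skil promoter), beside 20.5%. Of the 3 regions by feature, 0 were higher and 2 lower (Ski and Smurf1). Those 4 were not stable to the scale: all 4 had a log2 difference under 0 when reads were not divided by peak length, at −0.07, −0.09, −0.06 and −0.23 in the order given. Per 1000000 reads, 5 of 7 and 3 of 3 were higher with activin, beside 62.2% of all regions, and 0 were lower, beside 3.73%. Strong in all 4 libraries were 6 of the 12 member regions called everywhere, and 3 of the 6 by feature, beside 34.8% of all regions called everywhere.

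**Figure D5:**
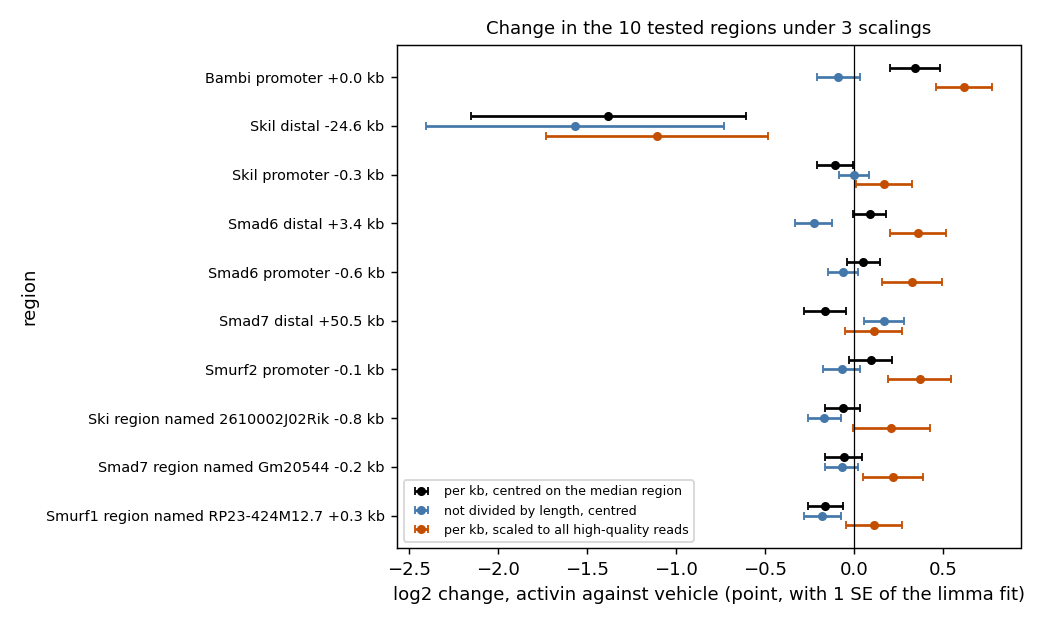
Log2 difference, activin against vehicle, of the 10 tested regions (point, with 1 SE of the limma fit) under 3 scalings. Relative to the median region (black) the points other than the Skil region at −1.38 lie between −0.17 and 0.34. Scaling to all high-quality reads (orange) adds the same amount to every region, so it moves each to the right by construction.

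Regions restricted to the vehicle libraries numbered 6 of 75 (8.0%, beside 4.86% of all regions), all weak in at least 1 library: 5 of Smad6 and 1 of Smad7. Pairs made of 1 vehicle and 1 activin library had 0 to 2 such regions each, and over all regions these pairs had 1409 to 10855 beside 12397 restricted to vehicle. By their lower value, the strongest were in intron 3 of Smad6, 59.2 kb past its start (9:63962685-63963344, 1.92 and 1.88), 45.2 kb past the start of Smad7 (18:75414026-75414502, 1.46 in both), and at the end of Smad6 (9:63953619-63954075, 1.35 and 1.23). The number of weak peaks per list also differed with the treatment, and its part here was not tested.

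The rest of the pathway behaved in the same fit as follows. Of 13 genes of the core pathway (activin and TGFβ receptors and the signalling SMADs), 8 had 14 tested regions between them: 0 passed the adjusted threshold in limma, 1 was lower and 0 were higher with an unadjusted p under 0.05, and the median log2 difference was −0.03. The smallest p belonged to a region named after Smad3, the main SMAD downstream of activin, 150.7 kb upstream of its start (9:63862534-63862782), in the same stretch of chromosome 9 as the distal regions named Smad6. Its densities were 4.89 and 4.32 (vehicle) against 4.26 and 4.67 (activin), which overlap before centring, and its log2 difference was −0.32 (SE 0.10, adjusted p = 0.429 in limma). Of 10 other inhibitors, among them the activin-binding follistatin (Fst) and the SMAD phosphatase Ppm1a, 8 had 10 tested regions, with 0 adjusted calls in limma, 1 lower and 0 higher with an unadjusted p under 0.05, and a median of −0.01. That region, 70.9 kb from the start of Ppm1a (12:72831831-72832339), had densities of 2.08, 1.55, 1.5 and 1.80 and a log2 difference of −0.40 (SE 0.18, adjusted p = 0.524 in limma).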

How the data were processed

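Per the labels, 350000 cells (LβT2b in the growth protocol, LbT2 as the cell line) were seeded per well and 50000 entered each transposase reaction, and the 4 libraries were grouped by title. The submitters' processing notes name Bowtie2, MACS2 and HOMER and the builds GRCm38 and mm10, without versions or roles. For each library the authors deposited a broad-peak list (a score, a fold enrichment ratio, and the −log10 of the p-value and q-value of each peak, called per library), an annotation by annotatePeaks.pl per the file headers (with a signed distance to a start site), and a quality report of ataqv 1.3.1 per the file headers, which gives high-quality autosomal reads per peak. The score and the fold were not used in any comparison. A count test was not used here: the read numbers refer to each library's own intervals, so log densities were tested.

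The members and the gene lists were chosen with earlier results of these data known. Peaks overlapping by at least 1 bp were merged across libraries. A promoter region held a peak annotated promoter-TSS or within 1 kb of a start site, and all others were distal. The main fit used log2 of (high-quality reads + 1) per kb, which understates differences where reads are few, over autosomal regions with 1 peak per library whose common part was at least 50% of the union. It used limma 3.58.1 in R 4.3.3 (lmFit, eBayes with trend, no block), with Benjamini-Hochberg adjustment over 13871 regions at 0.05, and was tested on simulated data. All 10 genes are named; promoter regions called everywhere are given in full. Distal regions are named where −log10 q was at least 5 in 2 libraries, where restricted to a treatment (up to 3) or where among the 5 smallest p. From each pathway list the region of smallest p is named, and for the likeness rule the 3 nearest promoter regions. Positions are as in the authors' files, counted from 1. Alternatives covered the pseudocount, peak length, scaling, overlap, low reads, the −log10 q limit, a replicate block and leaving out each library. Same-numbered libraries share nothing that the labels state.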

Additional observations from a re-analysis of the deposited data

How the results depend on the processing

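Of 103 alternative values for the 10 tested regions, 87 kept their direction and side of the threshold, 15 reversed and 1 passed it. Without division by length the log2 differences that reversed were −0.070 (Smurf2 promoter), −0.089 (Bambi), 0.17 (Smad7 at 50.5 kb), 0.000280 (Skil promoter), −0.23 (Smad6 at 3.4 kb) and −0.062 (Smad6 promoter). Scaling to all reads adds the same amount to the log2 difference of every region. Under it those that reversed were 0.11 (Smad7 at 50.5 kb), 0.17 (Skil promoter), 0.22 (Smad7 start), 0.21 (Ski) and 0.11 (Smurf1 start). The Smad6 promoter was at −0.035 with a common part of at least 80%, the Smad7 start and Ski at 0.049 and 0.042 in the fit over all regions, and the Smad7 start ran from −0.16 (without activin replicate 1) to 0.048 (without activin replicate 2). Over all regions the calls went from 0 to 1 with a pseudocount of 10, 39 without division by length (5 higher and 34 lower), 605 scaled to all reads (553 higher and 52 lower) and 4 with the replicate block, and ran from 0 to 9 leaving out 1 library (1 without activin replicate 1, 9 without activin replicate 2). Member calls were 0 in each of these except scaling to all reads, with 1 (Bambi). The correlation of deviations was −0.0252 for same-numbered libraries, the block called 0 of the 7 member regions, and no pairing was assumed. Member regions strong with activin only numbered 1 of 75, beside 2536 of all 255101 regions. They went to 0 at a limit of 3 (2904 of all regions) and to 0 with equal numbers of strongest peaks (456 of all). Leaving out 1 library gave between 1 and 2. Without vehicle replicate 1 there were 2, adding the Smad6 intron region, beside 3782 of all regions. Without activin replicate 2 there were 2, adding the Tgif1 promoter, beside 6351 of all. At 10 it was 1, the Smurf2 promoter in place of the Smurf1 region, beside 1932 of all. Strong with vehicle only went from 0 to 1 at a limit of 10 (Skil at 24.6 kb), while over all regions it went from 81 to 16. The difference in member peaks, −25, was 0 at a limit of 2, 1.5 at 5, −7.5 with equal list lengths, and ran from −37 to −13 leaving out 1 library. Apart from the amount added by scaling to all reads, the cause of these changes was not tested. Promoter regions called everywhere numbered 6, and 5 by distance alone.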

Other observations

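Among the regions that are members' by feature only, which were added after seeing the data, some outside the start sites were also called above the weak limit. An intron region of Smurf1 named Mir7039 (5:144894850-144895585) had −log10 q of 2.45, 3.48, 2.51 and 3.05 in vehicle 1, vehicle 2, activin 1 and activin 2, so the treatments overlapped. Its high-quality reads were few, 37, 106, 28 and 32, and the densities of 0.726 and 0.651 (vehicle) and 0.342 and 0.433 (activin) did not overlap. The common part was 21.3% of the union, and the log2 difference was −0.98 with an adjusted p of 0.521 in the limma fit over all regions called in every library. An intron region of Smurf2 named Cep95 (11:106866629-106867941) was called in vehicle library 2 at 3.99 and in activin library 1 at 5.14, with 87 and 84 reads, and in neither of the other libraries. Like the Skil region 24.6 kb before the start, both had low densities for their peak strength.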
